A study of Mus musculus with 10 samples.

Results

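The clustered protocadherin genes of the mouse lie on chromosome 18 in 3 subclusters, alpha, beta and gamma, and their CpG-rich sequence was described here in the left hemibrain of mice kept on 3 diets. The members were all non-control probes placed on chromosome 18 between positions 37080000 and 38010000 of the mm9 build. Alpha was taken up to 37380000, beta from there to 37800000, and gamma beyond. The rule used positions and no measured value. It found 100 of the 88737 non-control probes of the array, with 46 in alpha, 2 in beta and 52 in gamma. Probes whose starts lay at most 500 bp apart were joined, which gave 32 clusters here and 15538 on the whole array. Clusters of at least 3 probes are called regions, and there were 14 of them here among 13835. They held 76 of the 100 probes and are numbered as islands 1 to 14 in order along the locus, 8 in alpha and 6 in gamma. The other 18 clusters held 1 or 2 probes each, and both beta clusters were single probes.

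Clustered protocadherins are adhesion proteins of the cadherin superfamily on the surface of neurons. Each variable exon of alpha and gamma, and each beta gene, has a promoter of its own, and single neurons use a small choice of them, which gives neighbouring cells different surface identities. Methylation of such a promoter goes with its silence, while promoters in use are bound by the factor CTCF, and the C-type genes at the ends of alpha and gamma are known to be used more uniformly than the rest. A hemibrain mixes many neurons and glia, so a value here averages over promoters that are methylated in some cells and not in others. In the RefSeq gene order, 14 alpha genes ending in Pcdhac1 and Pcdhac2 come first, 22 beta genes follow, and 22 gamma genes end in Pcdhgc3, Pcdhgc4 and Pcdhgc5. Slc25a2 and Taf7, which are not protocadherins, stand between beta and gamma. That gene table is on a later build than the probes, so no island was assigned to a gene, and none of the 58 genes had an entry in the promoter table at hand.

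The 10 arrays came from the left hemibrain of male mice of the inbred strain C57BL/6j, which began a diet at 3 weeks of age and ate it for 24 weeks. The foods varied in polyunsaturated fat, namely in the n-3 kind relative to the n-6 kind. This ratio (n-3:n-6) was 7:1 in the enriched diet (ERD) with 4 arrays, 1:1 in the balanced diet (BLD) with 3, and 1:6 in the standard laboratory diet (STD) with 3. Every sample title, in all 3 diets, holds the word CONTROL and a number of its own. The labels do not say that each array was a separate animal, so tests measure the spread between these samples, and replicate numbers only name arrays. Methylated DNA was immunoprecipitated (IP) and set against input DNA of the same sample on a 2-colour array. Each value is log2 of IP over input, centred on the median of the array, so 0 is the middle of that array and not an absence of methylation. Antibody capture and hybridisation also depend on the sequence under a probe, which the files used here do not give, so an order of islands by level is a description.

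Over the 10 arrays, 77.2% of the 1000 protocadherin spots stood well above background in IP and input alike. Of all non-control spots, 86.7% did. By array the locus share ran from 63% in STD replicate 3 to 93% in ERD replicate 2, and by diet it averaged 79.8% in ERD, 80.7% in BLD and 70.3% in STD. The spread of ratios also differed. Over all probes the interquartile range was 0.71 ± 0.08 in ERD (SD, n = 4), 0.61 ± 0.20 in BLD (n = 3) and 0.47 ± 0.08 in STD (n = 3). ERD replicate 2 stood apart at this locus, where the interquartile range of its probes was 1.14 against 0.36 to 0.87 on the other arrays. It gave the highest value of 7 of the 14 islands, while STD replicate 3 gave the lowest value of 6. For many differences between diets, a value with 1 array left out is given as well.

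The protocadherin islands fell into a large group with high IP over input and a small group near or below the middle of the array. Islands 1 to 6 of alpha and islands 10 to 13 of gamma had mean levels between 0.34 and 0.66 over the 10 arrays. All 10 lay in the highest 10% of regions by mean level, which 10% of all regions do by construction. With normexp background correction, run on the median signal of each spot with no scaling between dyes, 5 of the 14 did. Islands 7 and 8, the last of alpha, and islands 9 and 14, the first and last of gamma, lay lower, between -0.26 and 0.07. The median level was 0.39 over the 14 islands and -0.05 over all regions. In the remaining 372 regions of chromosome 18 it was -0.07, and 6.45% of those were in the highest 10%.

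Among the islands of highest level, island 2 of alpha (chr18:37107648-37107929, 3 probes) was first, with a mean of 0.66 ± 0.42 (SD, n = 10), at the 98.0th percentile of all regions. Its log2 ratio was 0.28, 1.38, 0.58 and 1.10 on ERD replicates 1 to 4, 1.13, 0.68 and 0.35 on the BLD arrays, and 0.52, 0.61 and 0.01 on the STD arrays. All 10 values were above the array median, and the diets overlapped. It also held the protocadherin probe of highest mean level, 0.94, which was above background on all 10 arrays.

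Island 6 of alpha (chr18:37181577-37181948, 3 probes) followed with 0.53 ± 0.39. Its values were 0.06, 1.06, 0.37 and 0.78 in ERD, 0.63, 0.64 and 0.28 in BLD, and 0.09, 1.18 and 0.19 in STD, so its highest value came from STD replicate 2. Island 4 of alpha (chr18:37159323-37159676, 3 probes) came next with 0.50 ± 0.40. Neighbours in this order differed by far less than their spread between arrays. The 4 high islands of gamma were close together, at 0.42 ± 0.30 in island 12 (chr18:37925832-37926707, 7 probes), 0.40 ± 0.27 in island 11 (chr18:37915240-37915951, 6 probes), 0.38 ± 0.37 in island 10 (chr18:37912834-37913442, 4 probes) and 0.38 ± 0.16 in island 13 (chr18:37927496-37928231, 5 probes). Their order cannot be read beyond the spread between arrays. The lowest of the high islands was island 5 of alpha (chr18:37179910-37180478, 3 probes), with 0.34 ± 0.47 and values from -0.54 on STD replicate 1 to 1.07 on ERD replicate 2. Of the 14 islands, 5 were above the array median on all 10 arrays, against 8.27% of all regions. These were islands 2 and 6 of alpha and islands 11, 12 and 13 of gamma.

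The longest islands of each subcluster were the lowest. Island 8 of alpha (chr18:37302999-37304237, 11 probes over 1239 bp) had a mean of -0.26 ± 0.16, at the 12.9th percentile of all regions. Its values were -0.48, -0.34, -0.34 and -0.31 in ERD, -0.45, -0.10 and -0.12 in BLD, and -0.33, -0.17 and -0.01 in STD. It was the only island below the array median on all 10 arrays, as were 16% of all regions. Island 14 of gamma (chr18:37965542-37967176, 14 probes over 1635 bp) had a mean of -0.12 ± 0.11, at the 35.7th percentile. Its values were -0.32, -0.06, -0.11 and -0.11 in ERD, -0.10, -0.00015 and -0.06 in BLD, and -0.26, -0.16 and 0.04 in STD, so only STD replicate 3 was above the median.

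Island 7 of alpha (chr18:37249454-37250153, 6 probes) was the steadiest, with a mean of 0.07 ± 0.09 and values from -0.08 to 0.20. Island 9 (chr18:37803549-37804072, 5 probes) was the first of the range taken as gamma, with a mean of -0.01 ± 0.28. Genes that are not protocadherins stand next to this end of gamma in the RefSeq order, so gamma was also computed without island 9. The gamma mean over all probes and arrays was then 0.24, against 0.21 with it.

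The number of probes in a region went with its level across the array. Among all regions of exactly 3 probes, 18.6% were in the highest 10% by level, and all 6 protocadherin islands of that size were. Among regions of 3 to 7 probes the share was 11.8%, and 10 of 12 protocadherin islands of that size were in the highest 10%. Among regions of 11 or more probes it was 3.76%, and neither of the 2 protocadherin islands of that size was. The part of region size in these levels was not tested.

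The level within the long islands was not uniform. In island 8 probe means over the 10 arrays ran from -1.01 to 0.26, and in island 14 from -0.99 to 0.45. The lowest probe of island 8, 894 bp from its first probe, was not well above background in IP on any of the 10 arrays. In input it was above background on 2 of 4 ERD arrays and 3 of 3 BLD arrays, but on no STD array. Its mean was -1.64 in ERD, -0.997 in BLD and -0.17 in STD, so the low level came from the ERD and BLD arrays. There it rests on a dim IP channel, and on part of the ERD arrays input was dim as well. In STD both channels were dim and the ratio was nearer the middle of the array. The part of dim spots in these values was not tested. The next lowest probe of island 8, 375 bp from the first and above background on all 10 arrays, had a mean of -0.61. The probes next to these were nearer the middle of the array, with -0.12 and -0.14 at 820 and 1010 bp and with 0.26 and -0.12 at 213 and 466 bp. In island 14 the lowest and highest probes, at 801 and 880 bp, were neighbours, and the probes on either side of them had means of 0.01 at 649 bp and 0.04 at 972 bp. The lowest probe was above background in both channels on 7 of 10 arrays and in IP on 0 of 3 STD arrays, and the highest in both channels on 8. The spread between probes was at percentile 70.4 of all regions in island 8 and 69.9 in island 14. It was at percentile 82.7 in island 6, which has 3 probes. The 4 probes of island 10 had means between 0.34 and 0.43, and the spread between them was at percentile 0.52.

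The clusters of 1 or 2 probes, which lie between the islands, reached similar levels. The 18 small clusters held 24 probes, with levels from -0.01 to 0.79 and a median of 0.42. Of these, 12 were in the highest 10% of clusters of any size. They were not set against other clusters of 1 or 2 probes on the array. Counted over clusters of any size, 21 of 32 protocadherin clusters were in the highest 10%. Only 66.7% of the spots of small clusters were above background, and the cluster of highest level was 1 probe that was above background in 10% of its spots. Of the 100 single probes, 41 were in the highest 10% of probes.

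By subcluster, the mean over all probes was 0.27 ± 0.24 in alpha (SD over 10 arrays), 0.28 ± 0.52 in beta and 0.21 ± 0.16 in gamma. The 3 means lay within the spread between arrays, but the same 10 arrays gave all 3, and differences within an array were not tested. Alpha was below gamma on ERD replicate 3 and STD replicate 3 and above it on the other arrays. The beta value rests on 2 probes, at positions 37650807 and 37675506, whose spots were above background in 50% of cases, so the 22 beta genes were barely sampled. Alpha by array was 0.20, 0.79, 0.11 and 0.26 in ERD, 0.40, 0.53 and 0.20 in BLD, and 0.02, 0.21 and -0.02 in STD. Gamma was 0.15, 0.52, 0.17 and 0.21 in ERD, 0.34, 0.42 and 0.14 in BLD, and -0.01, 0.14 and 0.07 in STD. In both subclusters the lowest array was from STD. In alpha the 3 diets overlapped, and STD replicate 2 was above ERD replicates 1 and 3 and BLD replicate 3, while in gamma the lowest ERD and BLD arrays, at 0.15 and 0.14, stood just above the highest STD array, at 0.14. Beta was 0.28, 1.28, 0.09 and 0.15 in ERD, 0.78, 0.56 and 0.03 in BLD, and 0.44, -0.57 and -0.20 in STD, with all 3 diets overlapping.

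The diets were then compared, which asks whether the ratio of fatty acids in the food goes with methylation of the locus. No protocadherin island passed an adjusted p of 0.05 in limma with Benjamini-Hochberg adjustment over all 13835 regions, whether for ERD against STD, BLD against STD or ERD against BLD. The background was 0% in each of these comparisons. None passed for the trend over log2 of n-3:n-6 either, where 0.0434% of regions did. None of the 100 probes passed in a limma fit over all 88411 mapped probes, where again 0% did. The lowest adjusted p of an island was 0.210 for ERD against STD, 0.440 for BLD against STD, 0.675 for ERD against BLD and 0.231 for the trend. What follows are therefore values and their errors, none of which is a call.

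For ERD minus STD, 11 of 14 islands had an estimate above 0, as did 50.6% of all regions, and the median difference was 0.32 on the log2 scale, against 0.00 over all regions. At an unadjusted p under 0.05, 4 of 14 were higher and none lower, while 7.68% of all regions were higher and 8.02% lower. These were islands 1, 3 and 4 of alpha and island 11 of gamma. In either direction, the count was 1 without STD replicate 3 and 0 with normexp correction.

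Island 3 of alpha (chr18:37121811-37122004, 3 probes) had the lowest p. Its log2 ratio was 0.19, 1.46, 0.35 and 0.73 in ERD, 0.73, 0.45 and 0.51 in BLD, and 0.10, 0.09 and -0.43 in STD. Every ERD and BLD value was above every STD value, and ERD and BLD overlapped. ERD minus STD was 0.76 ± 0.25 (SE; adjusted p = 0.210 in limma), and without ERD replicate 2 it was 0.50. With normexp background correction it was -0.16. In this island 55.6% of STD spots were above background, against 91.7% in ERD and 88.9% in BLD, and the part of dim spots in the difference was not tested.

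Island 1 of alpha (chr18:37091756-37091982, 3 probes), the first of the locus, had the widest spread between arrays, with an SD of 0.52. Its values were 0.53, 1.53, 0.66 and 0.37 in ERD, 0.57, 0.65 and 0.18 in BLD, and -0.32, 0.61 and -0.25 in STD. A pair of STD arrays was low, while STD replicate 2 lay among the ERD values. ERD minus STD was 0.76 ± 0.28 (SE; adjusted p = 0.238 in limma). It was 0.51 without ERD replicate 2, 1.06 without STD replicate 2, and 0.45 with normexp correction.

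Island 11 of gamma had 0.73, 0.90, 0.33 and 0.34 in ERD, 0.52, 0.54 and 0.17 in BLD, and 0.14, 0.24 and 0.09 in STD. All ERD values were above all STD values, and BLD overlapped both. ERD minus STD was 0.42 ± 0.15 (SE; adjusted p = 0.229 in limma), 0.31 without ERD replicate 2, and -0.16 with normexp correction. Island 4 of alpha had 0.56, 1.22, 0.19 and 0.61 in ERD, 0.80, 0.65 and 0.54 in BLD, and 0.40, 0.38 and -0.33 in STD. Its ERD and STD values overlapped, and ERD minus STD was 0.50 ± 0.23 (SE; adjusted p = 0.315 in limma), or 0.30 without ERD replicate 2 and 0.26 without STD replicate 3.

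Estimates below 0 came from the islands of low level. Island 8 had the lowest p among them, with ERD minus STD of -0.19 ± 0.11 (SE; adjusted p = 0.421 in limma), -0.11 without STD replicate 3, and 0.07 with normexp correction. Islands 7 and 14 had estimates of -0.01 and -0.02, smaller than their standard errors of 0.09 and 0.10. Island 6 had 0.08 ± 0.27, and it turned to -0.09 with all arrays scaled to one spread and to -0.08 without ERD replicate 2.

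For BLD minus STD, 13 of 14 islands had an estimate above 0, as did 56.7% of all regions, with a median of 0.34 against 0.03 over all regions. This comparison shares the STD arrays with the last one. At an unadjusted p under 0.05, 3 of 14 were higher and none lower, against 7.31% and 3.89% of all regions. These were island 3 of alpha and islands 9 and 10 of gamma. In either direction, the count was 1 without STD replicate 3, 1 without BLD replicate 1, 5 without ERD replicate 2 and 5 without STD replicate 2. With normexp correction none was higher at that level, and island 7 was lower, with -0.19.

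Island 9 had 0.04, 0.32, -0.01 and -0.24 in ERD, 0.13, 0.53 and -0.02 in BLD, and -0.31, -0.27 and -0.26 in STD. Its STD arrays agreed to within an SD of 0.03, and all ERD and BLD values were above them. BLD minus STD was 0.49 ± 0.16 (SE; adjusted p = 0.440 in limma), and ERD minus STD was 0.31 ± 0.15 (SE; adjusted p = 0.337 in limma). With normexp correction these were 0.17 and 0.15, and corrected for probe length they were 0.27 and 0.20. Without BLD replicate 2, BLD minus STD was 0.34. Spots above background made up 60% in ERD, 66.7% in BLD and 60% in STD for this island. The probe 464 bp from the first was above background in neither channel on any STD array. The part of dim spots in the differences of island 9 was not tested.

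Island 3 had BLD minus STD of 0.65 ± 0.27 (SE; adjusted p = 0.442 in limma), or -0.25 with normexp correction. Island 10 had -0.06, 0.77, 0.23 and 0.78 in ERD, 0.57, 0.98 and 0.31 in BLD, and 0.01, 0.31 and -0.07 in STD, with BLD and STD overlapping by a single pair of values. Its BLD minus STD was 0.53 ± 0.23 (SE; adjusted p = 0.445 in limma), 0.35 without BLD replicate 2, and -0.24 with normexp correction. Island 4 followed with 0.51 ± 0.24, or -0.08 with that correction and 0.27 without STD replicate 3, and its BLD values were all above its STD values.

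Some islands had groups that did not overlap. For ERD above STD these were islands 3, 9 and 11, or 3 of 14, while 7.24% of all regions did so. For BLD above STD they were islands 3, 4 and 9, or 3 of 14, against 11.1% of all regions. None was separated in the other direction, against 9.01% of all regions for ERD below STD and 6.27% for BLD below STD. None was separated between ERD and BLD, against 3.32% with ERD above and 6.79% with ERD below.

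BLD and STD were hybridised together on 1 slide, which held BLD replicate 3 and STD replicate 1. Within it, among the islands named for this comparison, the BLD array was higher by 0.42 in island 3, 0.29 in island 9, 0.29 in island 10 and 0.14 in island 4. It was lower in island 2, by -0.17, and in island 7, by -0.06. Each diet has 1 array here, and the direction was not counted over all regions, so no background can be given. No slide held ERD with another diet, so slide and diet cannot be told apart for ERD, and a fit with a random slide block left no island past the adjusted threshold.

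For ERD minus BLD, 7 of 14 islands had an estimate above 0, as did 43.6% of all regions, and the median was 0.02 against -0.03. No island had an unadjusted p under 0.05, which 10.2% of all regions had, and 1 did without BLD replicate 1. Among islands that kept their direction whichever array was left out, the lowest p on the higher side was in island 13 of gamma. Its values were 0.28, 0.52, 0.64 and 0.53 in ERD, 0.52, 0.26 and 0.25 in BLD, and 0.23, 0.38 and 0.17 in STD. The diets overlapped, and ERD minus BLD was 0.15 ± 0.11 (SE; adjusted p = 0.675 in limma), or 0.24 without BLD replicate 1. Islands 11 and 1 followed with 0.17 ± 0.15 and 0.30 ± 0.28. Without ERD replicate 2 these were 0.058 and 0.051, and without BLD replicate 3 they were 0.048 and 0.16. On the lower side, islands 9, 8, 14 and 10 had -0.19 ± 0.15, -0.14 ± 0.11, -0.10 ± 0.10 and -0.19 ± 0.21, with adjusted p between 0.689 and 0.799 in limma. Without BLD replicate 2, islands 9, 8 and 10 had -0.030, -0.081 and -0.0094, and without ERD replicate 1 island 14 had -0.042 and island 10 had -0.026. The direction of island 8 was the other way with normexp correction, at 0.03, and so was that of islands 14 and 10, at 0.02 and 0.13.

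Along the trend from a ratio of 1:6 to 7:1, 11 of 14 slopes were above 0, as were 50% of all regions. At an unadjusted p under 0.05, islands 3, 11 and 1 had slopes above 0 and no island a slope below 0, against 7.09% and 7.94% of all regions. In either direction the count was 6 without ERD replicate 1 and 5 without ERD replicate 3 or 4, and it was 0 with normexp correction. The slopes per doubling of n-3:n-6 were 0.14 ± 0.05 in island 3, 0.08 ± 0.03 in island 11 and 0.14 ± 0.05 in island 1, with adjusted p between 0.231 and 0.235 in limma. Island 13 had 0.04 ± 0.02, and island 8 had the lowest p among slopes below 0, at -0.04 ± 0.02. The slopes of islands 3 and 11 were both -0.03 with normexp correction.

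Averaged over the 10 high islands, the log2 ratio was 0.36, 1.09, 0.36 and 0.59 in ERD, 0.69, 0.62 and 0.28 in BLD, and 0.06, 0.43 and 0.00 in STD. STD replicate 2 lay above ERD replicates 1 and 3 and BLD replicate 3. These islands were chosen by their mean over the same arrays, most of which were ERD or BLD, so this split is a description that favours high values in those diets. With normexp correction islands 3, 6, 10, 11, 12 and 13 had ERD minus STD below 0, from -0.16 to -0.01. The other 4 islands averaged -0.11 ± 0.08 in ERD (SD, n = 4), 0.02 ± 0.13 in BLD (n = 3) and -0.13 ± 0.08 in STD (n = 3), which overlapped. Island 9 was among these 4, and its BLD minus STD of 0.49 was larger than in most of the high islands.

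Among all regions of the array in the highest 10% by BLD level, a ranking that used no ERD or STD array, the median of ERD minus STD was 0.36, and 27.9% were higher at an unadjusted p under 0.05. Of the 9 protocadherin islands among them, 4 were. As ranks within each array, which do not depend on its spread, the median percentile of the 10 high islands was 84.1 to 93.8 on the ERD arrays, 91.7 to 93.9 on the BLD arrays, and 72.5, 92.6 and 70.9 on the STD arrays. STD replicates 1 and 3 were the lowest, and STD replicate 2 lay within the range of the other diets. On STD replicate 3, 6 of the 10 were above the array median, on STD replicate 1 it was 8, and on the other arrays 9 or 10.

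With all arrays scaled to one spread, ERD minus STD was 0.75 in island 3, 0.68 in island 1, 0.43 in island 4 and 0.28 in island 11. Island 12 (0.21, 0.96, 0.23 and 0.38 in ERD, 0.68, 0.78 and 0.25 in BLD, and 0.01, 0.41 and 0.24 in STD) had overlapping diets throughout. There it went from 0.22 to 0.09, and it was 0.05 without ERD replicate 2. In island 13 scaling took it from 0.23 to 0.10.

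By subcluster, ERD minus STD was 0.27 ± 0.17 in alpha (SE), 0.56 ± 0.41 in beta and 0.20 ± 0.10 in gamma. BLD minus STD was 0.31 ± 0.12, 0.56 ± 0.37 and 0.24 ± 0.09 in the same order. ERD minus BLD was -0.04 ± 0.18, -0.0044 ± 0.36 and -0.04 ± 0.12. These are means over probes chosen by position and carry no test. Without ERD replicate 2, ERD minus STD was 0.12 in alpha, 0.28 in beta and 0.11 in gamma. With normexp correction it was 0.024, -0.27 and -0.010, and BLD minus STD was -0.091, -0.25 and -0.058. Within the shared slide BLD minus STD in beta was -0.41, and without STD replicate 2 both differences from STD in beta were 0.33. Without ERD replicate 2, ERD minus BLD was -0.19 in alpha, -0.28 in beta and -0.13 in gamma.

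Some single probes differed more than any island did, though none was called. In island 9, probe A_68_P31629029, which lies 227 bp from the first and was above background on all 10 arrays, had means of 0.26 ± 0.12 in ERD (SD, n = 4), 0.03 ± 0.65 in BLD (n = 3) and -0.75 ± 0.09 in STD (n = 3). ERD minus STD was 1.02 ± 0.26 (SE; adjusted p = 0.153 in limma). In island 14, probe A_68_P31630116, which lies 1263 bp from the first and was above background on all 10 arrays, had means of -0.97 ± 0.40, -0.36 ± 0.18 and -0.02 ± 0.10. ERD minus STD was -0.95 ± 0.22 (SE; adjusted p = 0.152 in limma), while island 14 as a whole was at -0.02.

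In island 3, probe A_68_P31626368 had 0.94 ± 0.44 in ERD, 0.21 ± 0.22 in BLD and 0.19 ± 0.31 in STD. Its ERD minus BLD was 0.73 ± 0.26 (SE; adjusted p = 0.380 in limma), while the island as a whole had 0.12 ± 0.25. In all, 16 probes of 100 were higher and 4 lower in ERD than in STD at an unadjusted p under 0.05, against 6.52% and 8.52% of all probes. For BLD against STD it was 14 and 3, against 6.2% and 4.33%. For ERD against BLD it was 1 and 7, with no share over all probes given here. Among the lower was probe A_68_P31630116 of island 14, with ERD minus BLD of -0.61 ± 0.22 (SE, adjusted p = 0.382 in limma).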

How the data were processed

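DNA methylation was measured by MeDIP-chip on 10 Agilent 2-colour arrays, with immunoprecipitated DNA in Cy5 and input in Cy3 on every array, per the labels. The deposited intensity of each channel was background-subtracted and scaled between dyes, per the file headers, which name version 10.7.3.1 of Agilent Feature Extraction (9.0 per the submitters' processing notes). The deposited log10 ratios of the scanner files and of the series table differed by at most 0.00498, and the table's array medians lay between -0.0177 and 0.000978 (direction Cy5 over Cy3, no further centring). The deposited columns of positions and spot flags are codes.

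From the deposited intensity, log2 of Cy5 over Cy3 was computed, outlier-flagged spots were left out (5 of 1000 here), saturated spots were kept (1 here), and each array was centred on its median. A region is the mean of at least 3 probes with starts at most 500 bp apart. The limma package 3.58.1 (R 4.3.3; lmFit and eBayes) tested diets over all 10 arrays, 13835 regions and, separately, 88411 mapped probes (326 non-control probes had no position), with Benjamini-Hochberg adjustment at 0.05. The script was tested on simulated data. Named islands are those past the threshold, up to 4 per direction and comparison with the lowest p that kept their direction when any 1 array was left out, and the highest, lowest, longest and most and least variable of each subcluster. Named probes are those of extreme level and up to 2 per direction and comparison, and those not above background in a compared group get no difference. The members and lists were chosen with earlier results of these data known. Alternatives were normexp (offset 50), loess, quantile, scaling, the series table, filters on dim, saturated or outlier spots, probe length, other region definitions, slide, array weights, 2-diet fits and each array left out. Normexp on the median signal, the length correction, clusters of any size and gamma without island 9 were chosen after seeing the data. The number of arrays limits the precision.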

Additional observations from a re-analysis of the deposited data

Results flagged for a closer look

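The mean of the 2 beta probes was 1.28 on ERD replicate 2, while the other 3 ERD arrays lay between 0.09 and 0.28. The gap to the nearest of the others was 0.837 of the whole range, past the critical value of 0.829 for 4 samples. Of 17 ERD means examined in this way, over the 14 islands and the 3 subclusters, this was the only 1 past it, and chance gives about 1 in 20.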

How the results depend on the processing

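No protocadherin island passed the adjusted threshold in any comparison under any alternative run. Normexp background correction moved most. It started from the median signal and used no scaling between dyes beyond centring, so the background and dye steps changed together. The islands in the highest 10% by level went from 10 to 5. ERD minus STD became 0.024 in alpha, -0.27 in beta and -0.010 in gamma, and BLD minus STD -0.091, -0.25 and -0.058. The gamma level became 0.041. Estimates that turned were ERD minus STD in islands 3, 11 and 8 (-0.16, -0.16 and 0.067), BLD minus STD in islands 3, 10 and 4 (-0.25, -0.24 and -0.077), ERD minus BLD in islands 8, 14 and 10 (0.033, 0.023 and 0.13), and the trend in islands 3, 11, 13 and 8 (-0.027, -0.028, -0.0085 and 0.012). The cause was not tested. Only 3 islands could be tested with probes above background on all arrays, of which 2 were in the highest 10%. With at least 5 probes it was 3 of 7, and with clusters of any size 21 of 32. Within the shared slide, BLD minus STD in beta was -0.41. ERD minus BLD turned in island 13 with starts up to 1000 bp apart (-0.0096), and with region medians in islands 11, 14 and 10 (-0.018, 0.027 and 0.0059).

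With 1 array left out, 9 to 10 islands were in the highest 10%. Islands at an unadjusted p under 0.05 numbered 1 to 6 for ERD against STD (1 without STD replicate 3), 1 to 5 for BLD against STD (1 without STD replicate 3 and 1 without BLD replicate 1), 0 to 1 for ERD against BLD, and 2 to 6 for the trend. Alpha ERD minus STD ran from 0.12 to 0.35. In that comparison the adjusted p of island 3 ran from 0.119 to 0.588 over all alternatives. Normexp on mean signals and a correction for CpG and GC content were not run, since the scanner files used here hold neither mean foreground nor probe sequences. No paired analysis was possible because the labels give the arrays no replicate numbers shared between diets.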

Other observations

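The regions next to the locus did not form a like block. The 5 nearest before it had mean levels at the 23.6th to 88.4th percentiles of all regions, and the 5 nearest after it at the 13.9th to 97.7th. None before it and 2 after it were in the highest 10%.

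Longer probes made up a larger share of the locus than of the array, though the median length was 45 nucleotides in both. Of the 100 probes of the locus, 51% were 45 nucleotides long, against 73.9% of all mapped probes. Corrected for probe length, ERD minus STD was 0.71 in island 3, 0.76 in island 1 and 0.29 in island 11. BLD minus STD was then 0.58 in island 3, 0.58 in island 4 and 0.53 in island 10, but 0.27 in island 9, against 0.49 without the correction. It turned below 0 in islands 7, 11 and 13, at -0.038, -0.00029 and -0.10, against 0.064, 0.25 and 0.078 without the correction.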
